A study of Mus musculus with 8 samples.

Results

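The genes described here encode 7 proteins of the sodium pump and of water transport: Atp1b1, Atp1b2 and Atp1b3, the beta subunits of the sodium pump; Fxyd1, Fxyd5 and Fxyd6, small membrane proteins of the Fxyd family that modulate it; and Aqp1, a water channel. All probes that the probe table of the array gives for these symbols were taken, which was 10 probes for 7 of the 15967 genes with a probe of their own. The genes were chosen by their signals in the comparisons of the lines on these same arrays, which were already known. The differences between the lines are therefore a description with no test. Whether passage entered that choice is not known. The fit of later against earlier passages within the lines is given with its adjusted p-values, which are not independent evidence about genes so chosen.

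RNA was read on 8 Illumina Mouse Ref-8 V1.1 arrays from 3 lines of FlpIn-3T3 cells, a mouse embryonic fibroblast line with 1 site for the insertion of a cDNA. The control line had no insert, was kept in Zeocin and gave 3 arrays, 2 at passage 13 and 1 at passage 19. The Pax6(5a) line, with 2 arrays at passage 8 and 1 at passage 13, and the Pax6 line, with arrays at passages 9 and 15, carried the mouse cDNA of the named isoform in an expression vector and were kept in hygromycin. No cells were treated before harvest. Pax6 is a transcription factor of the eye and brain, and Pax6(5a) is the splice form with an insert in the paired domain. Each insert is represented by 1 line, so an effect of the isoform and other differences between the lines, their selection drug included, cannot be told apart. Passage numbers overlapped between the lines only in part, and preparations of 1 passage are not stated to come from separate dishes, so p-values measure the spread between these arrays.

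Each array gave a signal for 24613 probes, of which 10083 to 10685 were detected, that is, had a detection p-value under 0.01. The medians lay between 63.6 and 70.6 before normalization, and the lowest detected signal after it between 76.2 and 81.1. The Pax6 probe itself was not detected on any array, at signals of 45.2 to 56.8, so it could not check the labels. Of 9 fibroblast markers on the array, 8 were detected on every array, and none of 9 epithelial markers was detected on any. Of 6 neuron and glia markers on the array, Tubb3 was detected on all 8 arrays, Snap25 on 4, Syp on 3, and Map2, Gfap and Aqp4 on none. Of 5 endothelial markers, only Cdh5 was detected, on every array, at 309 to 868. Pecam1, Tek, Kdr and Vwf were detected on none. The summed signal of these 5 ranged from 529 to 560 on control arrays, from 721 to 847 on Pax6(5a) arrays and from 1086 to 1097 on Pax6 arrays. This sum thus differs through Cdh5 alone and is not a shift of the marker set. Whether it bears on the differences between lines that follow was not tested. All further signals are quantile normalized, and folds are ratios of geometric means.

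The sodium pump carries sodium out of the cell and potassium into it with the energy of ATP, and so keeps the gradients that other transporters use. The pump needs a beta subunit to fold and to reach the cell surface, and a Fxyd protein can join the complex and change its kinetics. The beta subunits are also adhesion molecules, and aquaporins let water follow the ions. In the eye the pump and Aqp1 work in the ciliary epithelium and the corneal endothelium.

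Atp1b1 and Aqp1 were the members with lower signals in both Pax6 lines, and Fxyd5 rose with passage in all lines. The 250 bases before the start sites of these 3 genes are printed here because the results turn on these members, from RefSeq (GRCm38.p6, in which 6 of the 7 members had a window). They lie at chr1:164458356-164458605 on the minus strand for Atp1b1, at chr6:55336049-55336298 on the plus strand for Aqp1 and at chr7:31042332-31042581 on the minus strand for Fxyd5. Each is printed 5′ to 3′ on the strand of the gene, and capitals mark a GC box (GGGCGG) or a CCAAT box (CCAAT) on either strand.
Atp1b1: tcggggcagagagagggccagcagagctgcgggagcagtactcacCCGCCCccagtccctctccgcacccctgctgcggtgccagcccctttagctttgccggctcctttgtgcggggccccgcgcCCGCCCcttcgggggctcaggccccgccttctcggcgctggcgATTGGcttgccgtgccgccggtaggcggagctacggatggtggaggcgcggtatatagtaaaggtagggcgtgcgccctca
Aqp1: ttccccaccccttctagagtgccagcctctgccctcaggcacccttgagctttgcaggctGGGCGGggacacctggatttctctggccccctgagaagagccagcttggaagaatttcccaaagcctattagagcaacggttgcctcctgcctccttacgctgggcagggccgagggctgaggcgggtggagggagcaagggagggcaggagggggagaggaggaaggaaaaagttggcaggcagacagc
Fxyd5: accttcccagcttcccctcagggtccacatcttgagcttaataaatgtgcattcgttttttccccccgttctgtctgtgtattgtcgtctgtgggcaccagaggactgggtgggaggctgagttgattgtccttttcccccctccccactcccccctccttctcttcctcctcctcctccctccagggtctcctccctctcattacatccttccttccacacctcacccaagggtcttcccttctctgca
The Atp1b1 window held 2 GC boxes, both on the opposite strand, and 1 CCAAT box on the opposite strand that began 81 bases before the start. The Aqp1 window held 1 GC box, which began 190 bases before the start, and the Fxyd5 window held neither motif. None of the 3 windows held the letters TATAAA of a TATA box, the core of the paired domain site (TTCACGC) or a homeodomain site (TAATTA). No motif overlapped another. Only these exact letters were sought, so variants such as the tatata near the end of the Atp1b1 window were not counted. TTCACGC is part of the consensus site the study used for Pax6, which it states Pax6(5a) cannot bind. The half-site it used for Pax6(5a) was not searched for. Over 32851 windows of the same length, the GC box was in 32.7%, the CCAAT box in 33.8%, the TATA box in 12.4%, the paired domain core in 1.03% and the homeodomain site in 4.84%. The letters G and C made up 70.4% of the Atp1b1 window, 62% of the Aqp1 window and 55.6% of the Fxyd5 window.

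Atp1b1, the beta 1 subunit, stood apart between the lines on every array (probe ILMN_2767615). The control line gave 883 and 783 at passage 13 and 706 at passage 19. The Pax6(5a) line gave 262 and 268 at passage 8 and 147 at passage 13, and the Pax6 line gave 139 at passage 9 and 85.5 at passage 15. All 5 arrays of the Pax6 lines were thus below all 3 of the control line, and both Pax6 arrays were below the 3 Pax6(5a) arrays. The geometric mean was 787 in the control line, 217 in the Pax6(5a) line and 109 in the Pax6 line. On the log2 scale the difference from the control line was -2.85 (SE 0.24) in the Pax6 line, a 7.22-fold lower signal, and -1.86 (SE 0.21) in the Pax6(5a) line, a 3.62-fold lower signal. The Pax6 line was 1.99-fold below the Pax6(5a) line, a log2 difference of -0.995 (SE 0.24).

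The lowest Atp1b1 signal, 85.5 in the Pax6 line at passage 15, was close to the lowest signal detected on that array, 81.1. With the background correction neqc, which moves low signals most, the signal of the Pax6 line was 11.2-fold below that of the control line. With the background correction normexp and an offset of 50 it was 6.57-fold below, against 7.22-fold with no correction. At the passage the lines share, passage 13, the mean of both control arrays was 832 and the 1 array of the Pax6(5a) line read 147, which is 5.67-fold lower.

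Aqp1, the water channel of red blood cells, kidney tubule and choroid plexus, was the other member whose lines did not overlap. Its first probe (ILMN_2756486, the one with the higher mean signal) read 1013 and 1063 in the control line at passage 13 and 1422 at passage 19. It read 424 and 399.8 in the Pax6(5a) line at passage 8 and 818 at passage 13, and 189 in the Pax6 line at passage 9 and 390.3 at passage 15. All arrays of the Pax6 line were below all of the Pax6(5a) line, and these below all of the control line. The Pax6 line was 4.24-fold below the control line (log2 difference -2.09, SE 0.31) and the Pax6(5a) line 2.23-fold (-1.16, SE 0.28). The Pax6 line was 1.91-fold below the Pax6(5a) line (-0.93, SE 0.31).

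The second Aqp1 probe (ILMN_1213863) had the same order of lines with smaller folds. It read 177, 205 and 233 in the control line, 107, 118 and 138 in the Pax6(5a) line, and 76.0 and 84.5 in the Pax6 line, where the passage 9 array was not detected. These are 2.55-fold (log2 difference -1.35, SE 0.13) and 1.695-fold (-0.76, SE 0.11) below the control line in the Pax6 and Pax6(5a) lines. The size of the difference of the first probe between the Pax6(5a) and control lines varied with the handling of passage. With a block for earlier and later passages it was 2.23-fold, as without the block, and with passage number as a covariate 1.32-fold. At passage 13 in both, the control line read 1037 and the Pax6(5a) line 818, 1.27-fold lower. Without the passage 9 array the Pax6 line was 2.95-fold below the control line, and without the passage 15 array 6.10-fold.

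The remaining members had overlapping lines, apart from 1 probe of Fxyd1 that was not detected anywhere. Atp1b3, the beta 3 subunit, read 4316, 3604 and 4160 in the control line, 3782, 3587 and 4706 in the Pax6(5a) line, and 3782 and 4369 in the Pax6 line. Its log2 difference from the control line was 0.02 (SE 0.12) in the Pax6 line and -0.01 (SE 0.11) in the Pax6(5a) line. Atp1b2, the beta 2 subunit known as an adhesion molecule on glia, was not detected on any of the 8 arrays, at 63.9 to 76.2. The beta subunit genes detected in these cells were thus Atp1b1 and Atp1b3, and of these the signal of Atp1b1 differed between the lines.

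Of the Fxyd members, Fxyd5, or dysadherin, which is known to weaken cell adhesion, was detected on all arrays by both of its probes. Its first probe (ILMN_1235493) read 1077, 1230 and 2111 in the control line, 1320, 1301 and 2239 in the Pax6(5a) line, and 1358 and 2015 in the Pax6 line. The lines overlapped, with log2 differences from the control line of 0.23 (SE 0.28) in the Pax6 line and 0.15 (SE 0.25) in the Pax6(5a) line. At the shared passage 13 the array of the Pax6(5a) line read 2239, 1.94-fold above the mean of the control arrays of 1151. With passage number as a covariate the Pax6(5a) line was 1.82-fold and the Pax6 line 1.55-fold above the control line. Both were then past threshold 2 (1.5-fold or more at an adjusted p below 0.01), which neither passed in the main fit or in any other of the 22 alternatives. With a block for earlier and later passages the Pax6 line was 1.08-fold above the control line. With the replicate number as a block it was 1.25-fold below. Over the alternatives the log2 difference ran from -0.32 to 0.63 in the Pax6 line and from -0.10 to 0.86 in the Pax6(5a) line. Fxyd1, or phospholemman, the pump regulator of heart and muscle, was detected on all arrays by 1 probe, at 103 to 115, and on none by the other, at 53.1 to 63.0. Fxyd6, a member of the family known from brain, was not detected on any array, at 49.0 to 59.8.

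**Figure D1:**
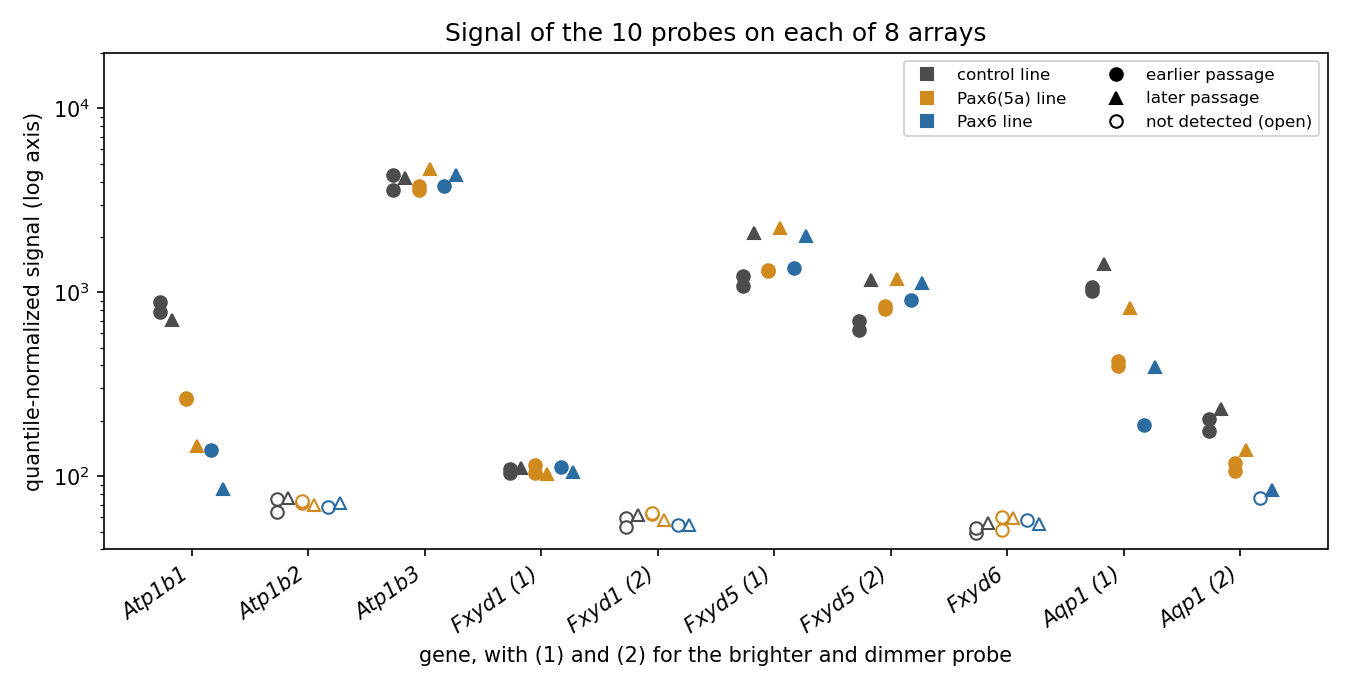
Quantile-normalized signal (log axis) of the 10 probes of the 7 genes, 1 point for each of 8 arrays, with colour for the line, circles for the earlier and triangles for the later passage, and open points where the detection p-value was 0.01 or more. Atp1b1 runs from 883 (control) down to 85.5 (Pax6) and the first Aqp1 probe from 1422 down to 189, while the lines of Atp1b3 and Fxyd5 overlap.

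Counted by the threshold of the study, 2 of the 7 genes, Atp1b1 and Aqp1, passed threshold 2 in the Pax6 line, where 2.45% of all genes passed it. In the Pax6(5a) line 1 gene, Atp1b1, passed by its first probe, with 1.20% of all genes. Between the Pax6 and Pax6(5a) lines none of the 7 passed, with 0.676% of all genes. By probe, 3 of 10 passed threshold 2 in the Pax6 line (2.02% of all probes) and 2 of 10 in the Pax6(5a) line (0.967%), where the second Aqp1 probe passed and the first did not. The 3 probes of Atp1b1 and Aqp1 were lower on every array of the Pax6 line than on every control array, as were 15.3% of all probes, and lower on every array of the Pax6(5a) line, as were 10.0%. They were also lower on every Pax6 array than on every Pax6(5a) array, as were 13.5% of all probes. Since the genes were chosen with these comparisons known, the shares are printed side by side and nothing is read from them. The Aqp1 count in the Pax6 line was lost without the passage 9 array, with neqc, with a trended variance and with preparations of 1 passage averaged, and the Atp1b1 count in the Pax6(5a) line with neqc and with averaged preparations. Other fits added genes. Aqp1 passed in the Pax6(5a) line with a block for earlier and later passages, with the replicate number as a block and without the passage 13 array of that line, 3 of 22 alternatives. Fxyd5 passed in both lines with passage number as a covariate. Between the Pax6 and Pax6(5a) lines Atp1b1 passed in 3 of 22 alternatives, with passage as block or covariate and without the passage 13 array of the Pax6(5a) line, and Aqp1 in 2, with passage as block or covariate.

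**Figure D2:**
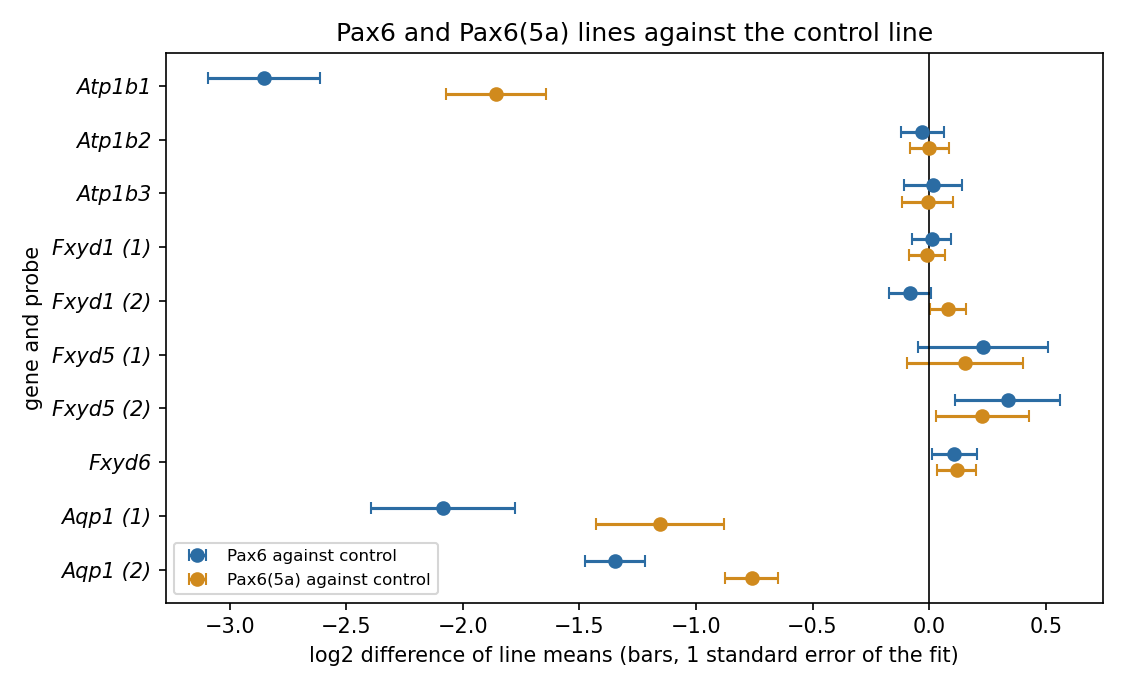
Log2 difference of the mean signal of the Pax6 line and of the Pax6(5a) line from the control line for each of the 10 probes, with bars of 1 standard error of the fit over 8 arrays. The Atp1b1 points stand at -2.85 and -1.86 and those of the first Aqp1 probe at -2.09 and -1.16, and the probes of the other 5 genes lie within 0.34 of 0.

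Passage was compared within the lines, with 1 term for the later against the earlier passage beside the mean of each line, and adjusted p-values over all probes. Of the 7 members, Fxyd5 and Aqp1 rose and Atp1b1 fell past threshold 2, which 46 of 15967 genes passed (0.288%). Nothing is read from these counts side by side. Atp1b2, Atp1b3, Fxyd1 and Fxyd6 did not pass it.

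Fxyd5 rose 1.69-fold with passage (log2 difference 0.75, SE 0.08, adjusted p = 2.0e-04 in limma). The later array was above every earlier one in all 3 lines, by 1.83-fold in the control line, 1.48-fold in the Pax6 line and 1.71-fold in the Pax6(5a) line. The second probe (ILMN_2742921) read 701 and 626, then 1163 in the control line, 816 and 846, then 1186 in the Pax6(5a) line, and 910.1, then 1118 in the Pax6 line. It differed by 1.48-fold (log2 difference 0.56, SE 0.09, adjusted p = 0.0038 in limma), just under the fold asked for. Over the array, 10.0% of all probes, and 15.3% of those detected on all arrays, were above every earlier array in all 3 lines.

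Aqp1 rose 1.75-fold with passage by its first probe (log2 difference 0.81, SE 0.10, adjusted p = 6.2e-04 in limma). The later array was 1.37-fold above the earlier ones in the control line, 2.07-fold in the Pax6 line and 1.99-fold in the Pax6(5a) line. The second probe read higher on each later array, with a log2 difference of 0.26 (SE 0.07) that did not pass (adjusted p = 0.093 in limma). With the mean of both probes the rise was 1.45-fold, under the fold asked for and the lowest of 20 alternatives, of which 16 passed threshold 2. In both Pax6 lines the later array of the first probe thus lay nearer to the control line than the earlier ones. Without the passage 13 array of the Pax6(5a) line the rise was 1.63-fold with an adjusted p of 0.014 in limma, past the threshold in fold but not in p.

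Atp1b1 moved the opposite way and fell 1.503-fold with passage (log2 difference -0.59, SE 0.10, adjusted p = 0.0061 in limma), at the edge of the fold asked for. The later array was below every earlier one in all 3 lines, 1.18-fold in the control line, 1.63-fold in the Pax6 line and 1.80-fold in the Pax6(5a) line, as were 9.85% of all probes and 15.1% of those detected on all arrays. Hence the distance of both Pax6 lines from the control line was wider at the later passages for Atp1b1 and narrower for the first Aqp1 probe. The second Aqp1 probe showed no such narrowing. Its log2 passage effect minus that of the control line was -0.14 (SE 0.19) in the Pax6 line and 0.007 (SE 0.17) in the Pax6(5a) line. A difference between the lines in the effect of passage was tested for each probe and none passed an adjusted p of 0.05 in limma, with 0.3 the lowest, for Atp1b1 in the Pax6(5a) line. The Atp1b1 fall kept its direction in all 20 alternatives and passed threshold 2 in 7 of them. It did not pass when the first passage 13 array of the control line, any 1 array of the Pax6(5a) line or either array of the Pax6 line was left out, with an adjusted p between 0.013 and 0.082 in limma and a log2 difference between -0.60 and -0.44.

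Atp1b3 differed by 0.21 on the log2 scale (SE 0.08, adjusted p = 0.20 in limma), with the later array above the mean of the earlier ones 1.05-fold in the control line, 1.16-fold in the Pax6 line and 1.28-fold in the Pax6(5a) line. In the control line it lay between the 2 earlier arrays. With neqc none of the 3 passed, with adjusted p-values in limma of 0.024 for Fxyd5, 0.043 for Aqp1 and 0.085 for Atp1b1, although their folds were 1.71, 1.86 and 1.73.

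**Figure D3:**
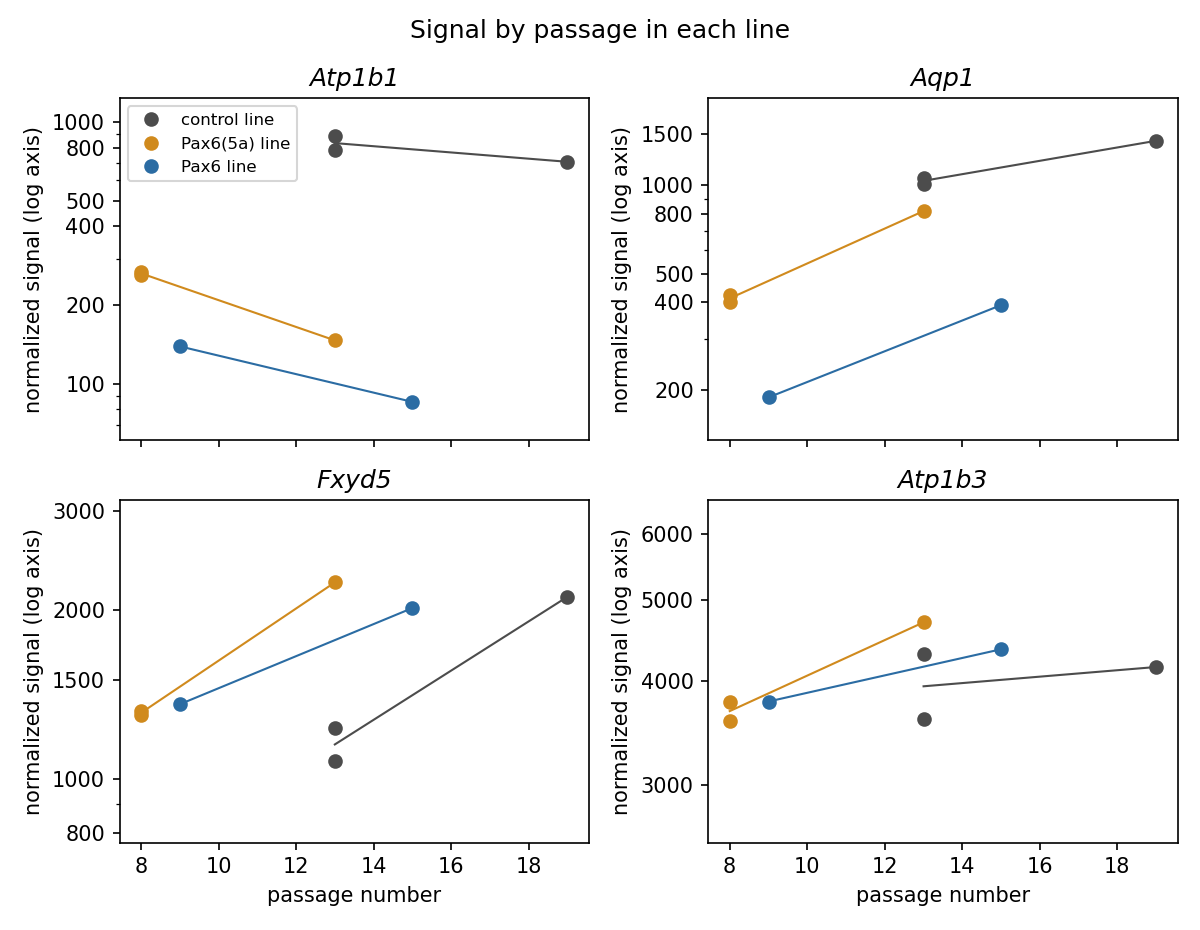
Quantile-normalized signal (log axis) against passage number for Atp1b1, Atp1b3 and the first probes of Aqp1 and Fxyd5, 1 point per array, with a line from the geometric mean of the earlier passage to the later passage of each cell line. Atp1b1 falls 1.503-fold and Aqp1 and Fxyd5 rise 1.75-fold and 1.69-fold from the earlier to the later passage, and Atp1b3 differs by 0.21 on the log2 scale.

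The wider families of ion and water transport were set beside these members: 87 genes with none of the 7 among them, of which 69 were on the array, 23 were detected on at least 1 array and 20 on all. Of all genes, 53.3% were detected on at least 1 array. In the Pax6 line 2 of the 69 genes fell past threshold 2 and none rose. Of all genes 2.45% passed it there, 1.42% lower and 1.03% higher. In the Pax6(5a) line 1 of the 69 fell and none rose, with 1.20% of all genes past it, 0.651% lower and 0.551% higher. None passed between the Pax6 and Pax6(5a) lines or with passage.

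Lrrc8d, a subunit of the volume-regulated anion channel that cells open when they swell, was lower in both lines. It read 1203, 1134 and 1206 in the control line, 758, 746 and 825 in the Pax6(5a) line, and 613 and 600.2 in the Pax6 line. The Pax6 line was 1.95-fold lower (log2 difference -0.96, SE 0.08, adjusted p = 1.8e-05 in limma) and the Pax6(5a) line 1.52-fold lower (-0.61, SE 0.07, adjusted p = 5.4e-04). The Pax6(5a) value lay near the fold asked for and did not pass without the second passage 8 array, with preparations of 1 passage averaged or with passage number as a covariate. Lrrc8c, another subunit of this channel, did not pass, with 271 in the control line, 302 in the Pax6(5a) line and 377 in the Pax6 line.

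Atp2a2, which encodes the calcium pump of the endoplasmic reticulum, read 1696, 1631 and 1507 in the control line, 1293, 1274 and 1257 in the Pax6(5a) line, and 888 and 1069 in the Pax6 line. By this first probe (ILMN_1245425) the 3 lines did not overlap. Over all probes, 15.3% were lower on every Pax6 array and 10.0% on every Pax6(5a) array than on every control array. The second probe (ILMN_1239742) read 130, 123 and 139 in the control line and 125, 115 and 125 in the Pax6(5a) line, which overlapped. It read 89.7 and 109 in the Pax6 line. The fall of 1.65-fold in the Pax6 line passed (log2 difference -0.72, SE 0.10, adjusted p = 5.1e-04 in limma), and the 1.26-fold difference of the Pax6(5a) line did not (adjusted p = 0.046). With the mean of both Atp2a2 probes in place of the first, 1 gene in place of 2 passed in the Pax6 line.

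The nearest relatives of the members were mostly dark in these fibroblasts. Of the remaining pump subunits, Atp1b4 and the proton pump genes Atp4a, Atp4b and Atp12a were on the array and not detected, and the same held for Fxyd2, Fxyd3, Fxyd4 and Fxyd7. Of 10 other aquaporins, Aqp3 and Aqp11 were detected on all arrays and Mip, the water channel of the lens, on 1 array. Aqp3, a channel for water and glycerol, had means of 86.6 in the control line, 101.5 in the Pax6(5a) line and 101.1 in the Pax6 line, and Aqp11 of 111, 119 and 134, and neither passed in any comparison. The genes of the epithelial sodium channel were not detected. Of 9 genes on the array for kinases that act on these transporters and for Nedd4l, which is not a kinase, 7 were detected, Nedd4l among them. None passed. Median log2 differences of the families lay between -0.11 and 0.11 in the Pax6 line, with 0.00 for all probes. Since only 23 of the 69 genes were detected on any array, these medians rest largely on undetected probes and cannot show that the families were unchanged.

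Genes whose signals over the 8 arrays were most like those of Atp1b1 and of the first Aqp1 probe were sought among 448 genes with a range of at least 1 on the log2 scale, as a description in which the arrays share their lines and passages. For Atp1b1 they were Ugt1a7c (Pearson r = 0.98), Gata6 (0.976), Igsf10 (0.975), Adamts5 (0.975) and Cela1 (0.972). For Aqp1 they were Trim47 (0.992), P2rx4 (0.978), Klf9 (0.975), Gdpd1 (0.972) and Csad (0.963). No gene was on both lists.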

How the data were processed

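Signal intensities of 8 arrays were deposited by the authors, not normalized and quantile normalized, with detection p-values for each probe computed by the authors in a way that is not given in the sources used here. Intensities were quantile normalized without background correction and put on the log2 scale, which gave the authors' values to within 5e-06. The 3 lines were compared in limma (3.58.1, under R 4.3.3) by their means, with all 8 arrays fitted together. Passages were compared in a fit of line and later passage. P-values were adjusted over 24613 probes (Benjamini-Hochberg). Threshold 2 of the methods was used. A gene is given by its probe of highest mean log2 signal. Named were all members with all probes, pathway genes past the threshold and, for likeness, the 5 genes of highest r with Atp1b1 and with Aqp1. Lrrc8c, Aqp3, Aqp11, Mip and the undetected relatives were named after their values were seen. The members, families and markers were chosen with earlier results of these data known.

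Alternatives were normalization by cyclic loess or by medians, background correction by normexp with an offset of 50 or by neqc with one of 16, the authors' normalized values, a filter to probes detected on 2 arrays or more, a robust prior with trended variance, the mean of all probes of a gene, preparations of the same passage averaged and each array left out. For the lines they were also the arrays compared alone, passage as covariate or block, a random block of line and passage, and the replicate number as a block, and for passage its slope and a mean for each line and passage. The replicate number as a block beside passage was added after the data had been seen. Data were simulated for the Pax6 and Pax6(5a) comparisons with control and for passage. In these, 100% of probes changed 2-fold and 48% to 54% of those changed 1.5-fold passed threshold 2. The changed probes were drawn from those detected on all arrays. The simulated noise came from a fit with a passage term and held no passage effect, whereas the line comparisons have no passage term. The shares for the lines can therefore be too high: the first Aqp1 probe, 2.23-fold lower in the Pax6(5a) line, did not pass. The number of arrays limits the precision. Figures were drawn with matplotlib 3.10.9 in Python 3.11.15. Promoter sequences are from RefSeq (GRCm38.p6). Items withheld for evaluation are left out.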

Additional observations from a re-analysis of the deposited data

How the results depend on the processing

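The counts of members and pathway genes past threshold 2 depended on the processing at their edges. With 3 members past it for passage, 0 passed with neqc, 1 with the mean of all probes of a gene, and 1 to 3 with 1 array left out, 1 without the passage 13 array of the Pax6(5a) line. Of the 69 pathway genes, 1 in place of 2 passed in the Pax6 line with the mean of all probes. In the Pax6(5a) line 0 in place of 1 passed with averaged preparations and with passage number as a covariate, and 0 to 1 with 1 array left out, 0 without the second passage 8 array. The cause was not tested. With the replicate number as a block 2, 1 and 0 pathway genes passed in the 3 line comparisons, as without it. Neither array of the Pax6 line has a number, so the block pairs nothing there and sets both with the unnumbered later arrays of the other lines. Same-numbered preparations of the control and Pax6(5a) lines deviated with r = 0.0413, so the numbers did not pair them. Beside passage, in a fit chosen after seeing the data, the block left 2 residual degrees of freedom and 0 of the members past threshold 2, since the passage term is then read from the Pax6 line alone. The log2 difference of Atp1b1 from the control line kept its sign in all 22 alternatives in both lines, from -3.48 to -2.49 in the Pax6 line and from -2.39 to -1.57 in the Pax6(5a) line, as did that of Aqp1, from -2.61 to -1.56 and from -1.49 to -0.40. No member past threshold 2 changed sign under an alternative. Signals near the lowest detected level can understate folds, and whether they did so here was not tested.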
